A study of Mus musculus with 24 samples.

Results

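The genes described here are those of respiratory complex I, the NADH dehydrogenase of the inner mitochondrial membrane. They were taken by name, as every gene whose symbol starts with Ndufa, Ndufb, Ndufc, Ndufs or Ndufv, the Ndufaf assembly factors included. The rule itself uses no measured value, but it was set with earlier results of these data known. The rule found 46 genes on 17 chromosomes, each with 1 probe set, among 22206 gene-level probe sets (19505 genes with a symbol of their own). By role they were 6 core catalytic subunits, 10 accessory subunits of the matrix arm, 9 of the proximal and 10 of the distal membrane arm (35 subunits in all), 8 Ndufaf assembly factors, Ndufa4 and Ndufa4l2, which carry the prefix but are not complex I subunits, and Ndufb4b, a copy of Ndufb4. Ndufb1 and Ndufb4c had no probe set that names them alone and were not analysed here, and none of the 7 subunits encoded by mitochondrial DNA was measured. Pseudogene copies exist in the mouse for several members (Ndufa12-ps, Ndufab1-ps, Ndufs5-ps, Ndufs6b and Ndufa11b), so signal shared with a near copy cannot be told apart, and Ndufb4 and Ndufb4b are uncertain for the same reason.

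Expression was measured in 4 groups of 6 mice aged 2 months on a C57BL/6J background: cardiac ventricle of Tatdn1-/- mice (KO) and of Tatdn1+/+ mice (WT), and brain cortex of KO and of WT mice. Each group held 3 males and 3 females, and the same 12 mice gave both tissues, 1 array each (24 Clariom S HT arrays). In KO mice exon 3 of Tatdn1, a gene named for its likeness to the bacterial TatD nuclease, had been removed in the whole body by a Cre recombinase under the ubiquitous CAG promoter, and the Cre transgene had then been bred out. The line came from a floxed allele made in embryonic stem cells, and the methods place the heart sample in the left ventricle. All values are log2 units.

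Complex I takes electrons from NADH, passes them along a chain of iron-sulfur clusters to ubiquinone, and pumps protons out of the matrix. Its matrix arm holds the NADH and ubiquinone sites, its membrane arm pumps, and the accessory subunits surround a core shared with bacteria, while assembly factors help to build the enzyme and are not part of it when finished. The heart, which beats on oxidative metabolism, is dense in mitochondria.

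The nuclear genes of the respiratory chain are transcribed from many separate promoters, and NRF1, ETS factors such as GABP, YY1 and the estrogen-related receptors (ERR) are known to act on such promoters. RefSeq promoters (GRCm38.p6), which run from 250 bases before to 50 bases after a start site, were at hand for 41 of the 46 genes (43 promoters). They were searched on both strands for GCATGCGC (NRF1), CCGGAAG (ETS), AAGATGGC (YY1) and AAGGTCA (ERR), and the letters of different motifs did not overlap in any member. AAGATGGC lay in 8 of the 43 (18.6%, against 2.75% of all 32851 promoters of the table), GCATGCGC in 5 (11.6%, against 2.71%), CCGGAAG in 6 (14%, against 8.86%) and AAGGTCA in 3 (6.98%, against 4.72%). At least 1 of the 4 was present in 48.8% of the members' promoters and in 17.6% of all promoters, and the members' median GC content was 59.3%, against 52.7% over all. The 8 YY1 matches, in Ndufa3, Ndufa9, Ndufaf8, Ndufb8, Ndufc1, Ndufs4, Ndufs6 and Ndufs7, were all on the strand of the gene and began 11 to 39 bases into the transcript. Their letters include ATG, the letters of a start codon, and whether the matches lie at coding starts was not tested. A match is a run of letters and no evidence of binding.

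5 promoters are shown. Ndufab1 and Ndufaf3 had the largest and the smallest difference between the tissues in WT mice, and their promoters held none of the 4 runs of letters. Ndufs8 and Ndufs7 are core subunits with an ETS and a YY1 match, and Ndufaf4 is an assembly factor with NRF1 matches at 2 places, of which the first is matched on both strands. Matches are in capitals.
Ndufab1 (chr7:122101799-122102098, minus strand): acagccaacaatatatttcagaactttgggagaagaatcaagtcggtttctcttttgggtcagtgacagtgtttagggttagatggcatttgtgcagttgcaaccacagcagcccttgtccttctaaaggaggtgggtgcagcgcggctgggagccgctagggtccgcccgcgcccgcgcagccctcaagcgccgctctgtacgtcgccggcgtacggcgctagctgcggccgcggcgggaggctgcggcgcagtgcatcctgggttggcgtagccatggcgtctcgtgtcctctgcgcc
Ndufaf3 (chr9:108567387-108567686, minus strand): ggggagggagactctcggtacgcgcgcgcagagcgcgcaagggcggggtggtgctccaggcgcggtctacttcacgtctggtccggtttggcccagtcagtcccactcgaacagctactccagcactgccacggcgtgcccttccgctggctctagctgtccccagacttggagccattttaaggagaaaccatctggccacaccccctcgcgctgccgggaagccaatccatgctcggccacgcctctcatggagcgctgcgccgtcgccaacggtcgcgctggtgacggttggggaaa
Ndufs8 (chr19:3912725-3913024, minus strand): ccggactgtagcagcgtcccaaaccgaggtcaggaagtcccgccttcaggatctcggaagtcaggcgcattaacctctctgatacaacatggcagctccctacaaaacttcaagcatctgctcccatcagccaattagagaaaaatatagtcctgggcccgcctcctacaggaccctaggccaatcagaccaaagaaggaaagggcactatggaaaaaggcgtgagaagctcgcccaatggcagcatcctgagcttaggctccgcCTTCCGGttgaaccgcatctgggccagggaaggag
Ndufs7 (chr10:80249199-80249498, plus strand): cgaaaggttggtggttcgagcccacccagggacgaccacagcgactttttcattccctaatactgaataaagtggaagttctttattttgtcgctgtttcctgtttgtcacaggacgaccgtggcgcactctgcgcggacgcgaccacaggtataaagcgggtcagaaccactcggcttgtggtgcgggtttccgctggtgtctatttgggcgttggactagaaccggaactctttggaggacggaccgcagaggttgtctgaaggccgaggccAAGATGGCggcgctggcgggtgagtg
Ndufaf4 (chr4:24897833-24898132, plus strand): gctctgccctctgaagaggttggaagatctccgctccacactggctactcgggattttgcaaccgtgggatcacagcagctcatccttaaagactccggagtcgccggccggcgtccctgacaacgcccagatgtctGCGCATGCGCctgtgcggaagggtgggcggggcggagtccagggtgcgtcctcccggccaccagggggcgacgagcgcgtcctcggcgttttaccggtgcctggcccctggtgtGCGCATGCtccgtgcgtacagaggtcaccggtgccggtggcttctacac

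The samples carried cardiomyocyte or neuronal markers according to their labels. Over 12 cardiomyocyte genes the mean level per array was 10.8 to 10.95 in KO ventricle and 10.74 to 10.94 in WT ventricle, against 3.01 to 3.2 in KO cortex and 3 to 3.11 in WT cortex, and over 12 neuronal genes it was 9.6 to 9.71 in KO cortex and 9.56 to 9.68 in WT cortex. 3 KO arrays stood apart. The ventricle of mouse F77-2 had a mean of 7.21 over 6 atrial genes, against 3.81 to 4.19 on the other KO ventricle arrays and 3.71 to 4.19 in WT ventricle. The ventricle of M78-1 had a mean of 4.54 over the neuronal genes, against 3.1 to 3.73 on the other KO and 3.02 to 3.69 on the WT ventricle arrays. The cortex of M78-1 had a median correlation of 0.9731 with the other arrays of its group, against 0.9903 to 0.9919 for those. The main counts and medians are also given without these 3 KO arrays. Among WT ventricle arrays M75-0 had the lowest such correlation, 0.9775, against 0.981 to 0.9848 for the others. Among cortex arrays, the mean over 8 striatal genes was 7.99 to 8.39 in KO mice, against 7.41 (M75-2), 7.56 (F76-3) and 8 to 8.4 (the other 4) in WT mice. In ventricle it was 3.34 to 4 in KO and 3.33 to 3.63 in WT mice. Striatal markers were thus present on all cortex arrays, and whether striatal tissue was in these samples was not tested. Over 9 oligodendrocyte genes the mean was 7.5 to 8.05 in KO and 7.41 to 8.17 in WT cortex. Over 7 cardiac fibroblast genes the mean was 5.89 to 6.5 in KO and 5.6 to 6.13 in WT ventricle. The part of these markers in the genotype values was not tested.

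Tatdn1, the disrupted gene, gave 4.97 at the lowest, 5.4 at the median and 6.03 at the highest in KO ventricle, against 6.53, 6.87 and 7.15 in WT ventricle. The groups did not overlap, with a KO minus WT difference of -1.36 (SE 0.18, limma adjusted p = 0.0156). In cortex it gave 4.44, 5.11 and 5.31 in KO mice, against 5.29, 5.81 and 6.15 in WT mice. These ranges met at 1 array each, and the difference of -0.78 (SE 0.17) had a two-sided exact permutation p of 0.00433 and a limma adjusted p of 0.168. No source used here places the probes relative to exon 3, and 1 KO cortex array, that of M78-1, was at or below background for Tatdn1. The ventricle call fell to an adjusted p of 0.0613 without WT mouse M75-1, 0.0677 without WT mouse M75-2 and 0.067 without KO mouse M78-1.

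The first question was whether loss of Tatdn1 changed the complex I genes. In ventricle none of the 46 genes passed an adjusted p of 0.05 (limma), where 0.0135% of all probe sets passed (3 of 22206). None passed at an unadjusted p of 0.05 either, where 8.46% of all probe sets did. The mean was higher in KO mice for 17 genes and lower for 29, with a median difference of -0.03, against 0.02 over all probe sets. All members lay between -0.25 (Ndufa4l2) and 0.12 (Ndufs6, a zinc-binding subunit of the matrix arm). For 45 of 46 genes the 95% interval of the difference stayed within 0.5 log2 units of 0, the exception being Ndufa4l2, whose interval reached -0.63. Over the 35 subunits the median was -0.04, over the assembly factors 0.02. Without the array of F77-2 the median over the 46 genes was -0.01, without that of M78-1 it was -0.02, and no gene passed in either case. At the unadjusted threshold 2 genes passed without WT mouse M75-1 and 1 without KO mouse M77-1.

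The core subunits showed how narrow these differences were. Ndufv1, which binds the flavin that accepts electrons from NADH, gave 10.68, 10.74 and 10.76 (lowest, median and highest) in KO ventricle, against 10.63, 10.76 and 10.91 in WT ventricle. The KO values lay inside the WT range, with a difference of -0.02 (95% interval -0.22 to 0.17). Ndufs1, the largest core subunit, with several iron-sulfur clusters, gave 9.65, 9.83 and 9.9 in KO ventricle and 9.72, 9.81 and 9.9 in WT ventricle, a difference of -0.01 (-0.21 to 0.19). Ndufs7, which holds the last cluster before ubiquinone, gave 9.75, 9.93 and 10.07 in KO ventricle and 9.69, 9.9 and 10.01 in WT ventricle, a difference of 0.07 (-0.15 to 0.29). All 3 pairs of groups overlapped. Ndufv2, Ndufs3 and Ndufs8 differed by 0.06, -0.03 and 0.06, and all 6 intervals of the core subunits lay within 0.5 of 0.

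Ndufb2, an accessory subunit of the distal membrane arm, had the smallest p of any member in ventricle. It gave 8.37, 8.52 and 8.83 in KO ventricle, against 8.63, 8.72 and 9.05 in WT ventricle. 5 of 6 KO arrays lay below every WT array, but the groups overlapped through KO mouse M77-1. The difference was -0.23 (SE 0.11), with a limma adjusted p of 0.619 and an unadjusted exact permutation p of 0.0325. No member was free of overlap between genotypes in ventricle, where 0.59% of all probe sets were.

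**Figure D1:**
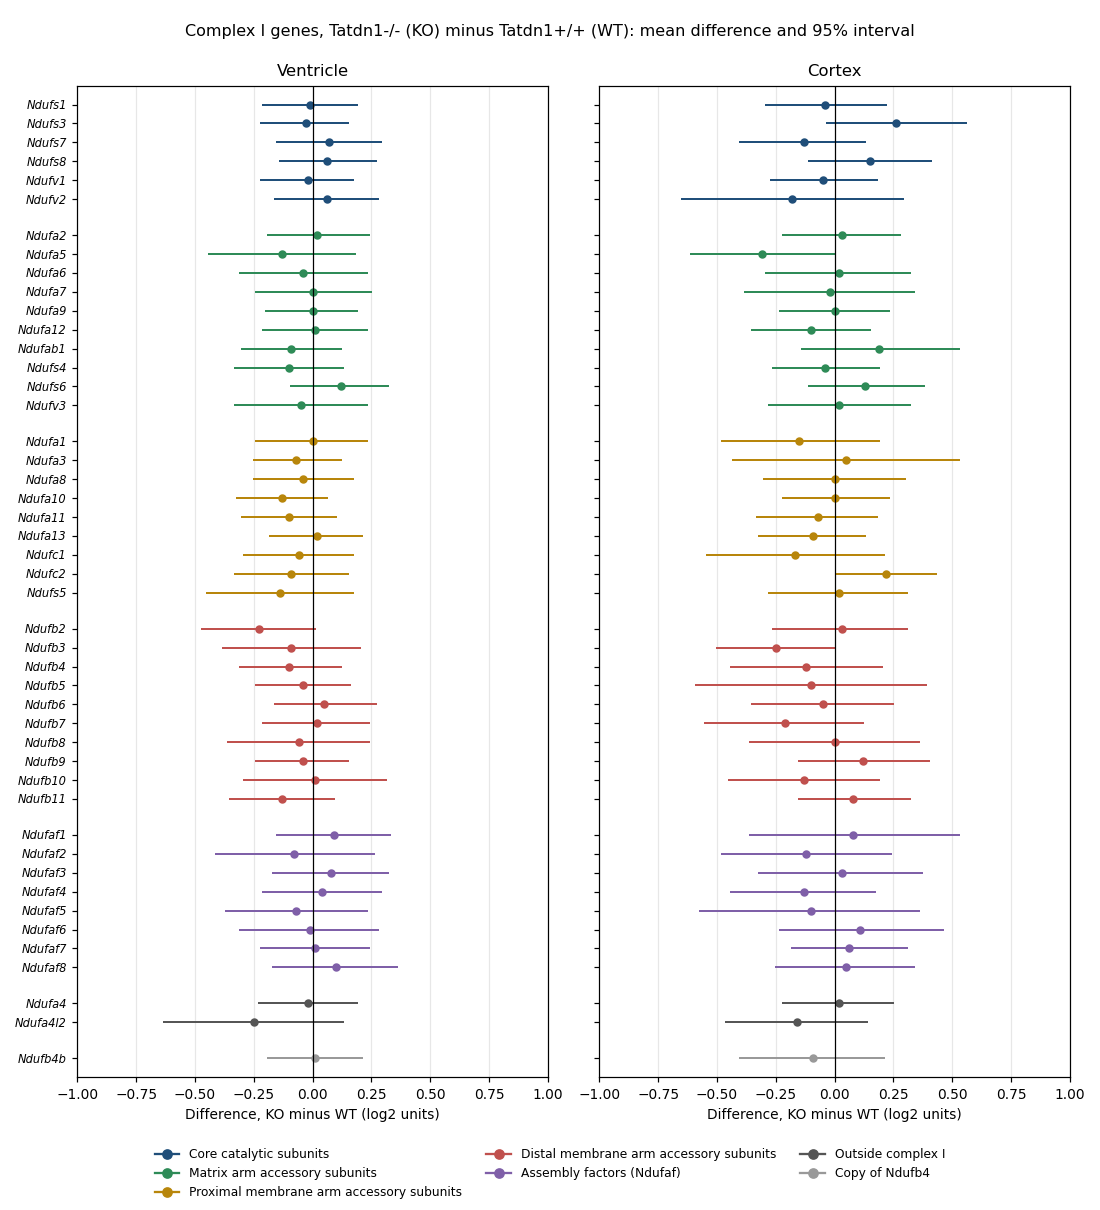
Difference between KO and WT mice for each of the 46 complex I genes in ventricle (left) and cortex (right). Dots are mean differences in log2 units and bars 95% intervals from limma (6 mice a group), coloured by role. In ventricle the dots lie between -0.25 and 0.12 and every interval includes 0. In cortex they lie between -0.31 and 0.26 with wider intervals.

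In cortex the picture was the same, with wider errors. No gene passed the adjusted threshold, where 0.00901% of all probe sets did (2 of 22206). At an unadjusted p of 0.05 there was 1 gene higher and 1 lower in KO mice, 2 of 46 in all, where 6.98% of all probe sets passed. Means were higher in KO mice for 23 genes and lower for 23, with a median of -0.01 (-0.02 over all probe sets). The 95% interval stayed within 0.5 of 0 for 36 of the 46 genes, so that for the other 10 a difference of that size was not excluded. Without M78-1, whose cortex array was the lowest of its group for 25 of the 46 genes, the median was 0.01, 3 genes passed the unadjusted threshold and none the adjusted one. The unadjusted count was 0 without WT mouse M75-0 or KO mouse F77-1, and 1 without WT mouse M75-1, M75-2 or F76-1 or KO mouse F77-2 or F77-3. Without WT mouse F76-2 it was 3.

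The gene that passed upward was Ndufc2, a small subunit of the proximal membrane arm. It gave 8.36, 8.51 and 8.59 in KO cortex, against 8.13, 8.29 and 8.4 in WT cortex. 5 of 6 KO arrays lay above every WT array and the groups overlapped by the lowest KO array alone, for a difference of 0.22 (SE 0.1, unadjusted exact permutation p = 0.00649, limma adjusted p = 0.699). The gene that passed downward was Ndufa5, an accessory subunit of the matrix arm, with 6.16, 6.6 and 6.64 in KO cortex and 6.28, 6.9 and 7.04 in WT cortex. These groups overlapped, with a difference of -0.31 (SE 0.14, unadjusted exact permutation p = 0.0541, limma adjusted p = 0.708), and without M78-1 it was -0.24 and no longer passed the unadjusted threshold. Ndufs3, a core subunit of the ubiquinone part of the matrix arm, had the largest positive difference, 0.26 (95% interval -0.03 to 0.56). Its 6 KO values lay close together, between 8.41 and 8.53, while the WT values ran from 7.66 to 8.51, so that the SD was 0.04 in KO and 0.33 in WT cortex, and without WT mouse M75-1, the lowest, the difference was 0.15. Ndufv2, an iron-sulfur subunit beside Ndufv1, was the least precise core subunit. Its KO values ran from 6.07 (M78-1) to 7.63, the WT values from 6.84 to 7.51, and the difference of -0.18 became 0.01 without M78-1. No member was free of overlap between genotypes in cortex either, where 0.576% of all probe sets were.

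Ndufb9, an accessory subunit of the distal membrane arm, is the neighbour of Tatdn1 on chromosome 15 in the GRCm38.p6 annotation. It gave 10.42, 10.49 and 10.65 in KO ventricle and 10.49, 10.54 and 10.64 in WT ventricle. In cortex it gave 8.54, 8.94 and 9.16 in KO mice and 8.45, 8.83 and 9.01 in WT mice. The genotypes overlapped in both tissues, with differences of -0.04 (95% interval -0.24 to 0.15) in ventricle and 0.12 (-0.15 to 0.4) in cortex. The cortex value was 0.2 without KO mouse M78-1, 0.07 without KO mouse F77-2 and 0.06 without WT mouse F76-1.

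**Figure D2:**
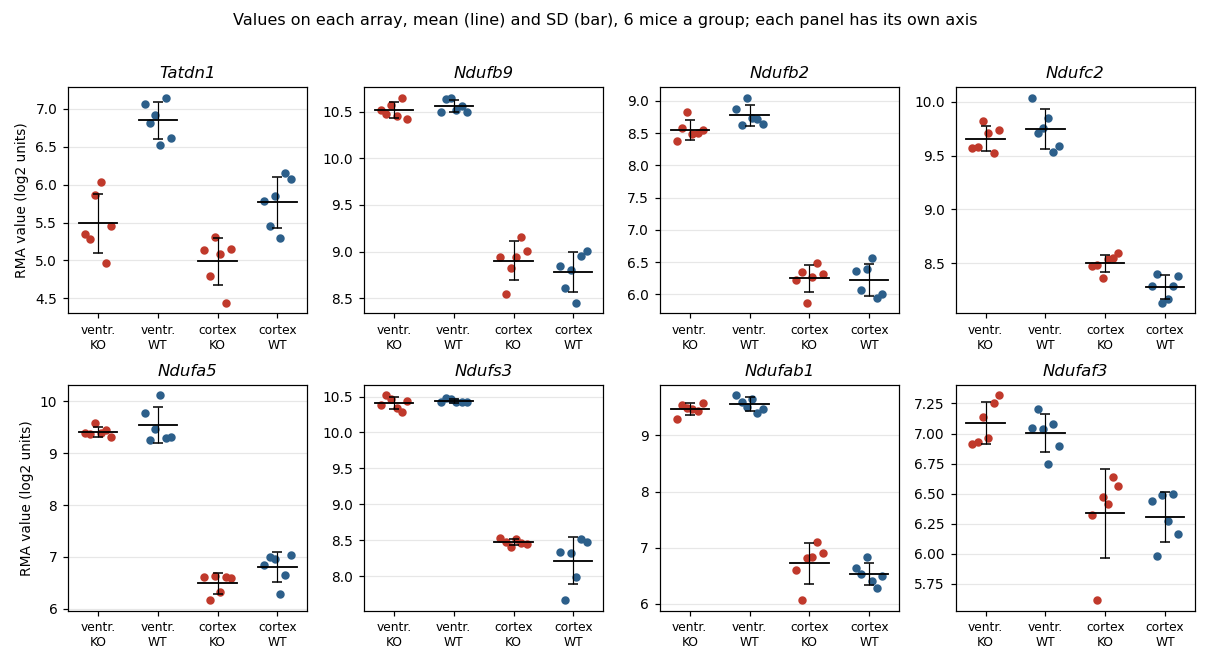
Values of Tatdn1 and 7 complex I genes on each array, in log2 units, for KO and WT ventricle and KO and WT cortex. Dots are single arrays (6 mice a group), lines are means, bars are SD, and each panel has its own axis. The genotypes overlap for every complex I gene shown, while ventricle lies above cortex for each of them.

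The second comparison, ventricle against cortex within each genotype, covered the same 46 genes. All 46 were higher in ventricle at an adjusted p of 0.05 (limma) in KO mice, where 29.8% of all probe sets were called higher, and all 46 in WT mice, where 29.3% were. In both genotypes 45 of the 46 had every ventricle array above every cortex array, against 20.8% of all probe sets in KO and 19.1% in WT mice, and Ndufaf5 was the exception in both. The median difference over the members was 2.04 in KO and 2.1 in WT mice, whereas the median of all probe sets was 0.09 in each. Only 6.24% (KO) and 5.54% (WT) of all probe sets exceeded the members' median, while 18.6% and 19% were at or above the smallest member. Without M78-1 the KO median was 1.99 and without F77-2 it was 2.1, with all 46 genes still called. In bulk tissue, more cells or mitochondria of a kind and more RNA per cell cannot be told apart.

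**Figure D3:**
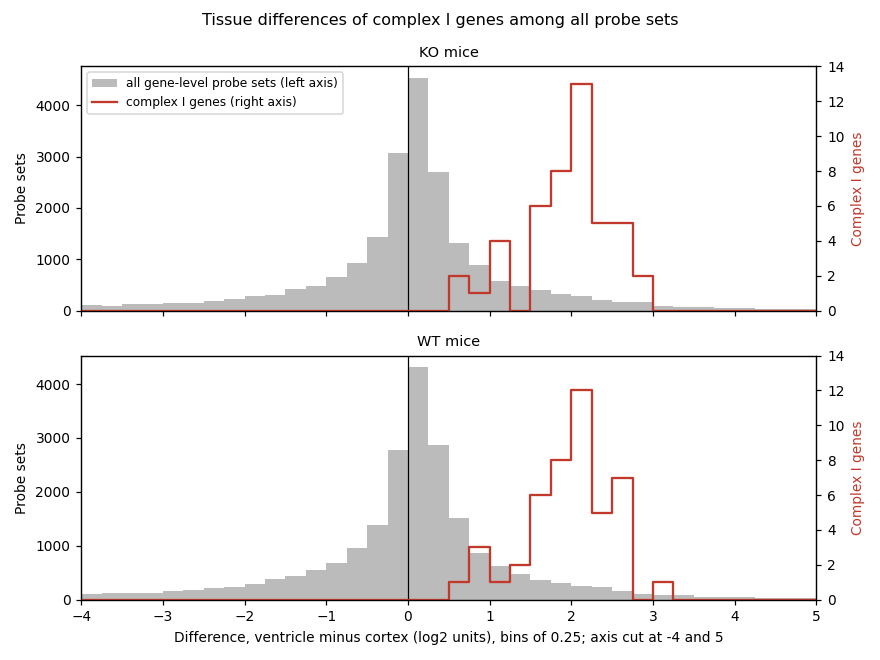
Ventricle minus cortex differences in log2 units, in bins of 0.25, for KO mice (above) and WT mice (below). Grey bars count all 22206 gene-level probe sets (left axis, cut at -4 and 5) and the red line counts the 46 complex I genes (right axis). The grey bars centre near 0, with a median of 0.09, and the complex I genes lie at 0.75 to 2.92 in KO and 0.7 to 3.03 in WT mice.

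The subunits and the assembly factors differed in size. The 35 subunits had a median difference of 2.17 in KO and 2.19 in WT mice, and the lowest of them, Ndufc2, still differed by 1.16 in KO and 1.47 in WT mice. The 8 Ndufaf genes had medians of 1.09 and 1.08, from 0.75 (Ndufaf3) to 1.92 (Ndufaf4) in KO mice and from 0.7 (Ndufaf3) to 1.79 (Ndufaf1) in WT mice. By part of the enzyme the medians were close, at 2.06 and 2.09 (KO and WT) for the core subunits, 2.21 and 2.25 for the matrix arm, 2.08 and 2.17 for the proximal and 2.23 and 2.25 for the distal membrane arm. No test of the gap between subunits and assembly factors was made. Ndufaf2, Ndufaf5, Ndufaf6 and Ndufaf8 had 1 or 2 KO cortex arrays at or below background. The subunits Ndufa1, Ndufa7 and Ndufv3 had 1 each, and Ndufaf8 also had 1 in WT cortex. In KO cortex the array of M78-1 was flagged for each of these genes. The background percentile of an array ran from 3.38 to 4.83 in KO and from 3.37 to 4.06 in WT cortex. The part of low signal in the gap was not tested.

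Ndufab1, the mitochondrial acyl carrier protein, which also serves fatty acid synthesis, had the largest difference in WT mice, and its promoter is the first of those shown. It gave 9.29, 9.49 and 9.58 in KO ventricle, against 6.06, 6.83 and 7.11 in KO cortex. In WT mice it gave 9.4, 9.56 and 9.72 in ventricle, against 6.28, 6.51 and 6.84 in cortex. The tissues were far apart in both genotypes, by 2.75 (SE 0.15, limma adjusted p = 6.82e-11) in KO and 3.03 (SE 0.12, adjusted p = 1.74e-13) in WT mice, or 6.71-fold and 8.15-fold. Without M78-1 the KO difference was 2.6.

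Ndufa5 had the largest difference in KO mice, 2.92 (SE 0.11, limma adjusted p = 7.32e-13), and 2.74 in WT mice. Ndufb10, a distal membrane arm subunit, differed by 2.86 in KO and 2.72 in WT mice, and Ndufa1, a proximal membrane arm subunit encoded on the X chromosome, by 2.74 and 2.6. Ndufb7 (2.61 in KO, 2.39 in WT) and Ndufb11 (2.37 in KO, 2.58 in WT), both of the distal membrane arm, complete the genes among the 5 largest in one genotype or the other. The core subunits lay between 1.71 (Ndufs8) and 2.51 (Ndufs1) in KO mice and between 1.8 and 2.49, for the same genes, in WT mice. Ndufs8, with its ETS letters, gave 10.12, 10.23 and 10.29 in KO ventricle against 8.28, 8.54 and 8.72 in KO cortex, and 9.93, 10.2 and 10.24 in WT ventricle against 8.08, 8.32 and 8.69 in WT cortex. Ndufs7, with its YY1 letters, differed by 2.18 in KO and 1.97 in WT mice.

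The smallest differences were all in assembly factors, apart from Ndufc2 in KO mice. Ndufaf3, which acts with Ndufaf4 on the ubiquinone part of the enzyme, gave 6.91, 7.05 and 7.32 in KO ventricle against 5.61, 6.44 and 6.64 in KO cortex, and 6.75, 7.05 and 7.2 in WT ventricle against 5.98, 6.36 and 6.5 in WT cortex. Its tissues did not overlap, with differences of 0.75 (SE 0.16, limma adjusted p = 0.000719) in KO and 0.7 (SE 0.13, adjusted p = 0.000145) in WT mice. Its partner Ndufaf4, by contrast, differed by 1.92 and 1.74. Ndufaf7, a mitochondrial methyltransferase, differed by 0.75 in KO and 0.81 in WT mice, and Ndufaf5, known in human cells to modify NDUFS7, by 0.8 and 0.77. Ndufaf5 gave 5.12, 5.72 and 5.95 in KO ventricle against 4.34, 4.89 and 5.21 in KO cortex, and 5.49, 5.71 and 5.93 in WT ventricle against 3.95, 5.07 and 5.58 in WT cortex. Its tissues overlapped in both genotypes. Ndufaf2, a relative of Ndufa12, differed by 1 and 0.96, and Ndufaf8, the partner of Ndufaf5, by 1.25 and 1.2. The size of these small differences depended on the scaling. When arrays were centred on 60 ribosomal protein genes, which moved the median of all probe sets to -0.47 in KO and -0.5 in WT mice, Ndufaf3, Ndufaf5 and Ndufaf7 lost their call in both genotypes and Ndufaf2 in WT mice, leaving 43 called genes in KO and 42 in WT mice with no sign changed.

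The 2 genes outside complex I were also higher in ventricle. Ndufa4, now counted as a subunit of complex IV, differed by 1.77 in KO and 1.81 in WT mice. Ndufa4l2, a relative of Ndufa4 known to be induced in hypoxia, gave 4.12, 4.45 and 4.71 in KO ventricle and 4.13, 4.71 and 5.16 in WT ventricle. In cortex it gave 1.89, 2.36 and 2.66 in KO and 2.32, 2.4 and 2.68 in WT mice, on all 12 arrays at or below the 95th percentile of the array's background controls. Set against that background, it was at least 1.52-fold higher in ventricle in KO and at least 2.05-fold higher in WT mice, with 1 of the 6 WT ventricle arrays also not above background. Ndufb4b, the copy of Ndufb4, differed by 1.74 in KO and 1.63 in WT mice. In KO cortex 1 or 2 of the 6 arrays were at or below background for Ndufa1, Ndufa7, Ndufaf2, Ndufaf5, Ndufaf6, Ndufaf8 and Ndufv3. The array of M78-1 was among them for each gene. In WT cortex 1 array was at or below background for Ndufaf8.

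**Figure D4:**
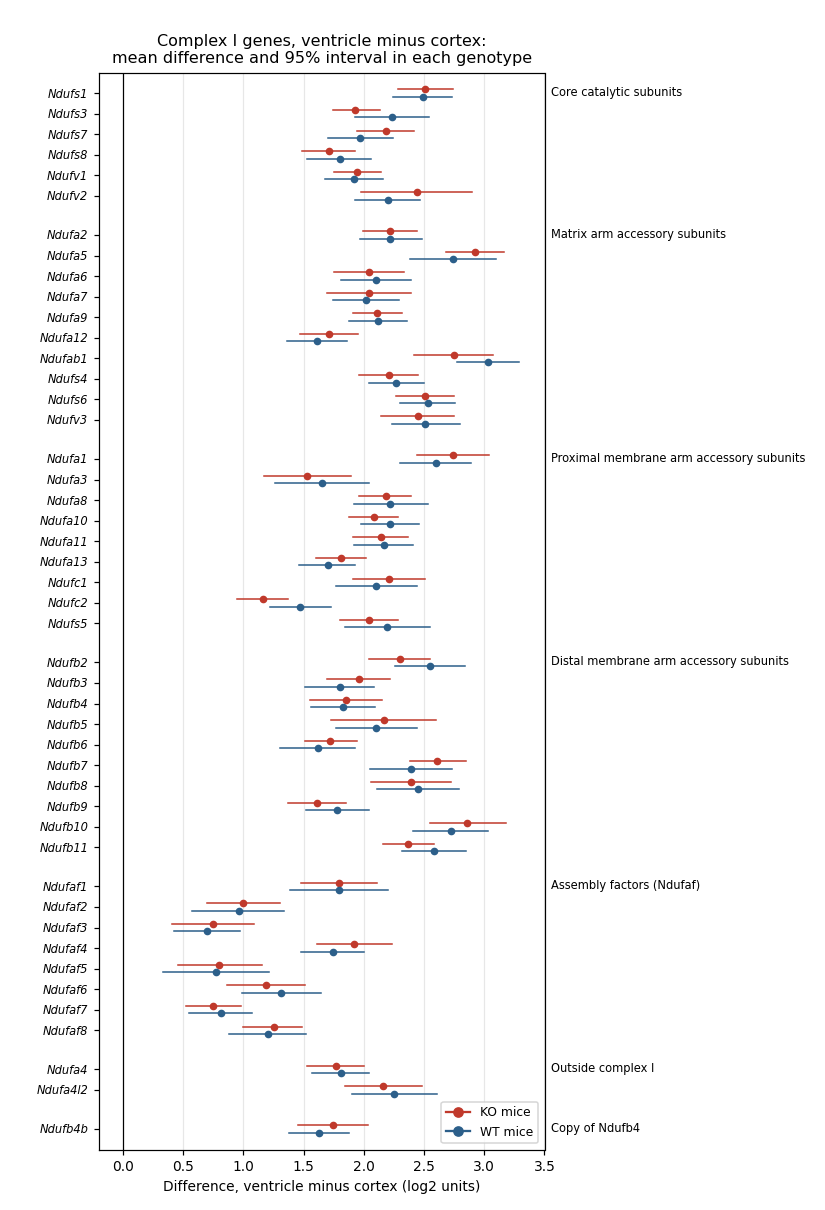
Ventricle minus cortex difference of each of the 46 complex I genes in log2 units, in KO mice (red, upper dot of each pair) and WT mice (blue, lower dot), with 95% intervals from limma (6 mice a group). Every dot lies right of 0, the subunits at 1.16 or more and the 8 assembly factors between 0.7 and 1.92, and the intervals of the genotypes overlap for each gene.

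The other complexes of the respiratory chain moved in the same direction between the tissues. Of 44 measured subunits of complexes II to V, 41 were higher in ventricle in KO mice (29.8% of all probe sets were) and 41 in WT mice (29.3%), with medians of 1.92 and 1.96. In each genotype 2 were lower, where 25.3% of all probe sets were lower in KO and 26.3% in WT mice. They included Cox6a1, the isoform outside heart and muscle (-1.45 in KO, -1.6 in WT), whereas the heart and muscle isoform Cox8b, not above background on any cortex array, was at least 60.1-fold higher in KO and at least 69.3-fold higher in WT ventricle. All 11 measured assembly factors of other names were higher in both genotypes, with medians of 1.58 in KO and 1.14 in WT mice, Aifm1 most (3.14 in KO, 2.81 in WT). Among 15 measured regulators of mitochondrial biogenesis 12 were higher in KO mice, and in WT mice 12 were higher and 1 lower. They included Gabpa, the DNA-binding part of GABP (1.56 in KO, 1.51 in WT), and the receptor Esrrb, which was not above background on any cortex array and at least 2.79-fold higher in KO and 2.58-fold higher in WT ventricle. Between genotypes none of these genes passed the adjusted threshold (limma). At an unadjusted p of 0.05 Uqcrc2 alone passed in ventricle, where 8.46% of all probe sets did, and 3 genes of complexes II to V and 1 regulator in cortex, where 6.98% did. The smallest p was that of Uqcrc2, a core protein of complex III, which was lower in KO mice in ventricle by -0.69 (SE 0.13, limma adjusted p = 0.122) and in cortex by -0.43 (SE 0.14, adjusted p = 0.475).

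The third question was whether the genotype difference depended on the tissue. No member passed the interaction test at an adjusted p of 0.05 (limma), where 0.0135% of all probe sets passed, and 1 passed at an unadjusted p of 0.05, where 9.54% did. This was Ndufc2, whose KO minus WT difference was -0.09 in ventricle and 0.22 in cortex, a gap of -0.31 (SE 0.14, limma adjusted p = 0.496). The tissue difference in KO and in WT mice lay within 0.2 of each other for 38 of the 46 genes. The intervals of the interaction were wide, and for 23 of the 46 genes they went past 0.5 on at least 1 side. The count of 1 became 0 without WT mouse M75-0 or M75-2 or KO mouse M78-0, F77-1, F77-2 or F77-3, and 2 without WT mouse F76-2 or KO mouse M77-1. Ndufc2 itself did not pass without M78-1, with a value of -0.3.

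Males and females were compared in the same way. In ventricle no member passed even at an unadjusted p of 0.05 (5.27% of all probe sets did), and the median of the male minus female gap was -0.05. In cortex 4 members passed at that level, 4 of 46 where 3.86% of all probe sets did, all with a lower genotype difference in males, and none after adjustment. They were the assembly factors Ndufaf2 (-0.78) and Ndufaf6 (-0.71), Ndufab1 (-0.74) and Ndufv2 (-0.76), each with a limma adjusted p of 0.995. For Ndufaf2 the means were 3.85 in KO males and 4.36 in WT males, against 4 in KO females and 3.73 in WT females. For Ndufab1 they were 6.49 and 6.67 in KO and WT males, against 6.96 and 6.39 in KO and WT females. The gap was below 0 for 35 of the 46 genes, with a median of -0.18 (0.01 over all probe sets). The 3 KO males included M78-1. Without that mouse Ndufaf2 was at -0.56 and Ndufab1 at -0.53, which still passed at the unadjusted level, while Ndufaf6 at -0.6 and Ndufv2 at -0.49 did not. The count of 4 became 2 without WT mouse M75-2 or KO mouse F77-2, and 6 without KO mouse M78-0.

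Part of the spread was shared between genes. In ventricle the 46 genes tended to deviate together, with a mean correlation of 0.228 over the 1035 pairs after the group means were removed (12 arrays, 72.8% of pairs above 0, against a mean of 0.00209 over all probe sets). All probe sets were far dimmer, with array medians of 3.135 to 3.295, against 8.87 to 9.19 over the members. Other genes of like brightness were not compared. KO mouse M77-1 was above its group mean for 45 of the 46 genes, and KO mouse M78-0 was the lowest of its group for 21, with median deviations of 0.1 and -0.09. Among WT ventricles F76-2 was above its group mean for 8 genes and M75-0 for 36. In cortex the mean correlation was 0.0837 over 12 arrays, and 0.0324 over 11 arrays without M78-1. The median deviation of M78-1 in cortex was -0.17, and it was farthest below its group mean for Ndufb5, at 6.16 against 7.34 to 7.64 in the other KO mice, and Ndufv2, at 6.07. These pairs share arrays and normalization, and the part of RNA quality or tissue sampling in this shared spread was not tested.

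**Figure D5:**
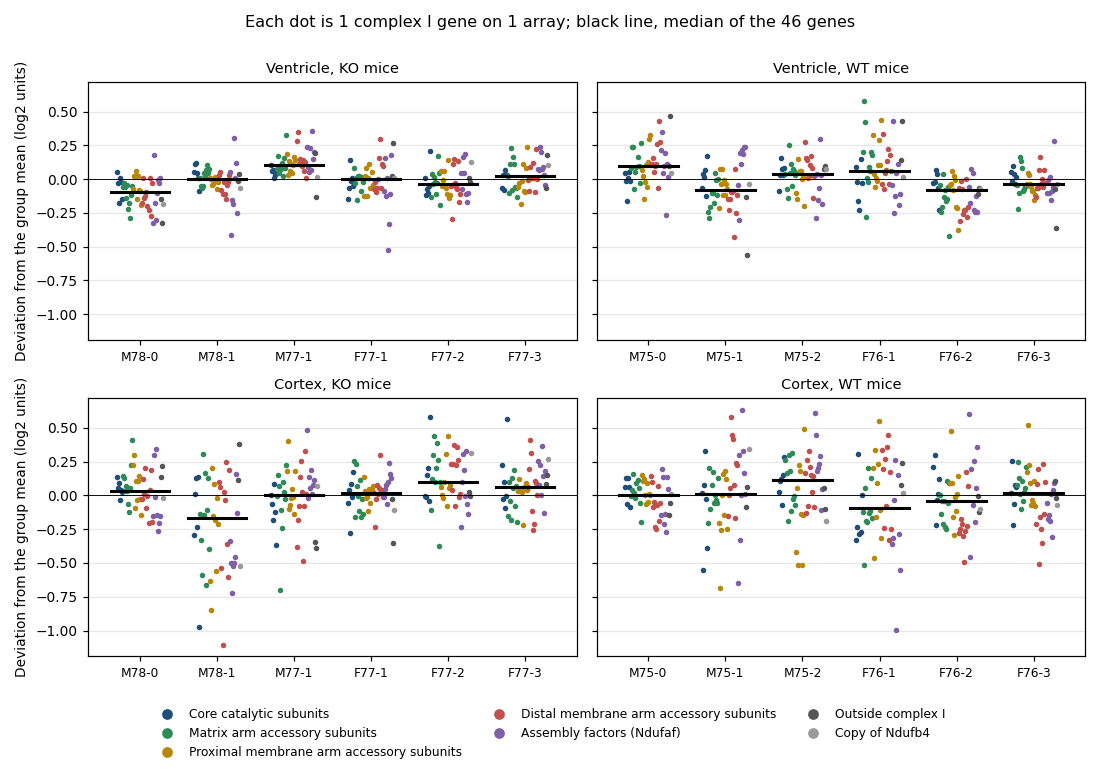
Deviation of each of the 46 complex I genes from its group mean on each array, in log2 units, for ventricle (above) and cortex (below), KO mice left and WT mice right. Each dot is 1 gene, coloured by role, and black lines are medians over the 46 genes. KO ventricle M77-1 sits above 0 (median 0.1) and M78-0 below (-0.09), and KO cortex M78-1 has the lowest median, -0.17.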

How the data were processed

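RNA of 12 mice had been hybridised to Mouse Clariom S HT arrays, 1 array per tissue and mouse. The deposited values are on a log2 scale and were made by the authors with RMA, a method that subtracts background, equalises the distributions of the arrays and combines the probes of a probe set. Neither the RMA version nor whether the tissues were normalized together is given in the sources used here. Values ran from -0.11 to 12.31. Arrays carry no read depth, and their number limits the precision. The table held 29129 entries, of which 6923 were not gene-level and 22206 entered the tests. Symbols came from the platform annotation (19572 probe sets with 1 symbol) and names were checked against RefSeq genes of GRCm38.p6. No column of values was left unused.

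Groups came from the labels. The first number of the animal codes differs between genotypes, and what it marks cannot be told apart from genotype. In WT mice this number also differs between the sexes, whereas KO male M77-1 shares it with the KO females. The comparison of males and females is therefore not free of what the number marks. All comparisons used lmFit and eBayes of limma 3.58.1 (R 4.3.3) over all probe sets, with Benjamini-Hochberg adjustment and no covariate, while promoters were searched in Python 3.11.15 (numpy 2.4.6, pandas 2.3.3). The code was tested on simulated data. Exact two-sided permutation tests took all 924 splits of 12 mice into 6 and 6 (smallest p 0.00216). A probe set counted as not above background at or below the 95th percentile of 23 background controls on its array (3.37 to 4.83). For such a group, a fold is a lower bound, computed with the dim group's mean set at that percentile. The labels give the 2 tissues of a mouse 1 animal code. Their deviations correlated by -0.08 to 0.046 and the consensus correlation was -0.0161 in KO, -0.0108 in WT mice and -0.0137 over all arrays, and the mouse was a block in alternatives only. Other alternatives were quantile normalization, centring of arrays on their median or on 60 ribosomal protein genes, removal of the 30% dimmest probe sets, array weights, a robust fit with a variance trend, a term for sex, all 24 arrays in 1 fit, each sex alone, an exact Wilcoxon test and each mouse left out.

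The members, gene lists and comparisons were chosen with earlier results of these data known. Named genes are Tatdn1, Ndufb9, the core subunits, Ndufa4, Ndufa4l2, members at an unadjusted p of 0.05 in a genotype comparison or interaction, the 5 largest and 5 smallest tissue differences of each genotype, and at most 4 genes of another list by smallest p. Ndufb2, Ndufs6, Ndufaf1, Ndufaf4, Ndufb4b, Ndufb5 and Cox6a1 were named after their values were seen.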

Additional observations from a re-analysis of the deposited data

Results flagged for a closer look

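Among 188 groups of 6 arrays (46 genes and Tatdn1 in 4 groups), 8 held a highest or lowest array that stood far from the other 5, with a gap of over 0.625 of the range of the group. Chance gives about 1 in 20 such groups. In KO cortex mouse M78-1 was the low array for 5 genes: Ndufa1 (4.59, others 5.26 to 5.45), Ndufa3 (8.44, others 9.29 to 9.69), Ndufaf3 (5.61, others 6.32 to 6.64), Ndufb10 (5.1, others 5.69 to 6.03) and Ndufb5 (6.16, others 7.34 to 7.64). In the same group M77-1 was low for Ndufa4 (8.83, others 9.15 to 9.31). WT mouse F76-1 was low for Ndufs1 in cortex (6.99, others 7.34 to 7.53) and for Ndufs8 in ventricle (9.93, others 10.17 to 10.24). No genotype difference of a member differed between tissues or sexes at an adjusted p of 0.05.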

How the results depend on the processing

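Under every alternative run, no member passed an adjusted p of 0.05 between KO and WT mice in ventricle (smallest 0.462) or cortex (0.489) or in the interaction of genotype and tissue (0.387), all from limma but the cortex value, which is from the Wilcoxon test, whose smallest possible unadjusted p of 0.00216 leaves little room for a call over 22206 probe sets. The members at an unadjusted p of 0.05 were few and varied. In ventricle they were 1 with arrays centred on their median, 2 with a variance trend and robust fit, 2 with the Wilcoxon test and 0 to 2 with a mouse left out. In cortex they were 1 with quantile normalization, without the dimmest probe sets, with sex as a term and in males alone, 4 with array weights and 0 to 3 with a mouse left out. In the interaction they were 2 with median centring, 2 with a variance trend and 0 to 2 with a mouse left out. In cortex the median difference over the members was -0.13 in males alone and 0.09 in females alone. Between tissues the members' median was 2.37 in KO and 2.51 in WT mice with arrays centred on their median, and 1.48 and 1.51 centred on ribosomal protein genes, which moved the median of all probe sets to 0.42 and 0.5, and to -0.47 and -0.5. With a mouse left out it was 1.99 to 2.1 in KO and 2.03 to 2.1 in WT mice. With the mouse as a replicate block, fixed or random, all 46 members stayed called in each genotype and the medians were 2.04 and 2.1; it changed no call. The Tatdn1 difference in ventricle was -1.44 in males alone (adjusted p = 0.402, limma) and -1.28 in females alone (0.762), with 3 mice a group. Averaging the probe sets of a gene gave no other value, since each member has 1.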
